A study of Mus musculus with 18 samples.

Results

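Heat shock proteins and chaperones were followed here through 9 genes: *Hspa1a*, *Hspa1b*, *Hsph1*, *Dnajb1*, *Hspb1*, *Hspa8*, *Hsp90aa1*, *Hspa5* and *Hsf1*. They were taken by symbol from the 55573 Ensembl genes of the count table, and each symbol matched 1 gene. The rule for this choice used no measured value of these genes, but earlier results of these data were known when it was made. The study counted RNA-Seq reads in the ipsilateral dorsal horn of the spinal cord (DHSC), segments L3 to L5, of 18 adult C57BL/6J mice taken 2 h after 2% formalin had been injected into a hindpaw. Formalin is an irritant that causes a defined bout of paw licking and shaking, and mice of all groups received it. Of these, 6 were males, 6 were females labelled F1/proestrus and 6 were females labelled F2/metestrus, where F1 and F2 name a short or a long pause between the phases of pain behavior and proestrus and metestrus are stages of the estrus cycle. The sample labels join the behavioral class and the cycle stage, so that they cannot be told apart. Samples without formalin were not analysed here, so each level describes spinal cord after the injection and not a change caused by it.

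Heat shock proteins are molecular chaperones, which bind unfolded proteins and help them fold, refold or be degraded. HSF1, the protein of *Hsf1*, is the transcription factor that switches on the inducible genes of the family when proteins unfold in the cytosol, and it does so through heat shock elements, short inverted repeats of GAA. HSPA1A and HSPA1B are the inducible Hsp70 proteins and HSPA8 is the constitutive Hsp70 of the same compartment. DNAJB1 is a J-domain protein that hands clients to Hsp70 and stimulates its ATPase, and HSPH1 (Hsp110) exchanges the nucleotide on Hsp70. HSPB1 is a small heat shock protein that holds unfolded clients without ATP and is well known in injured neurons and reactive glia. HSP90AA1 is the stress-inducible cytosolic Hsp90. HSPA5 (BiP) is the Hsp70 of the endoplasmic reticulum (ER), and its gene answers to the unfolded protein response of the ER through ER stress response elements.

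The promoters shown next are those of members whose levels are compared in what follows, the near-identical Hsp70 pair, the members with more than 1 heat shock match, and *Hspa5* as the gene of the ER. Each runs from 250 bases before to 50 bases after the transcription start, 5′ to 3′, and was read from RefSeq sequences of GRCm38.p6. Capitals mark the heat shock match in the first 4 (GAANNTTC or TTCNNGAA, each its own reverse complement and therefore searched on both strands, overlaps allowed) and the ER stress response element in *Hspa5* (CCAAT, 9 bases of any kind, then CCACG, on either strand). The positions are chr17:34972107-34972406 (minus strand) for *Hspa1a*, chr17:34959189-34959488 (minus strand) for *Hspa1b*, chr5:149636287-149636586 (minus strand) for *Hsph1*, chr5:135887669-135887968 (plus strand) for *Hspb1* and chr2:34771840-34772139 (plus strand) for *Hspa5*.
Hspa1a: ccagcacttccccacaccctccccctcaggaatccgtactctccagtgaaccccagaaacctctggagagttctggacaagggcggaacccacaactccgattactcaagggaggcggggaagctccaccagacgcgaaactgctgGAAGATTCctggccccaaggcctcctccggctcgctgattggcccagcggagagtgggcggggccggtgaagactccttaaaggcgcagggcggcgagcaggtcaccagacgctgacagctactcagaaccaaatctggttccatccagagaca
Hspa1b: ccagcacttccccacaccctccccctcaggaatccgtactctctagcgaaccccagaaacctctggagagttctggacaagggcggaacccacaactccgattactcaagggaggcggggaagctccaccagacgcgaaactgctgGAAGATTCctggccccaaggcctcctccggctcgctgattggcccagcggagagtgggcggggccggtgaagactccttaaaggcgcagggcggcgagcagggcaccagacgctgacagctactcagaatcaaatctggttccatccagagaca
Hsph1: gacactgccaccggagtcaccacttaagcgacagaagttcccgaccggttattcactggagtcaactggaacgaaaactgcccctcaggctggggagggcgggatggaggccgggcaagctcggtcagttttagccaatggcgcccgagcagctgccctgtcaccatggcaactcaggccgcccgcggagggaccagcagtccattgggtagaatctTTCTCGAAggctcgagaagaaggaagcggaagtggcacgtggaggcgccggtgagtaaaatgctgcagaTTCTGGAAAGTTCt
Hspb1: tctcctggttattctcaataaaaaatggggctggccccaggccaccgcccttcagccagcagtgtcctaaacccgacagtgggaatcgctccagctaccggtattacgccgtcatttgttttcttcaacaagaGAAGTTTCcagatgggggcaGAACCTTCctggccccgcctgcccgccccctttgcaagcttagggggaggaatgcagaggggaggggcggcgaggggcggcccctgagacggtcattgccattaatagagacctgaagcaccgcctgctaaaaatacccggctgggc
Hspa5: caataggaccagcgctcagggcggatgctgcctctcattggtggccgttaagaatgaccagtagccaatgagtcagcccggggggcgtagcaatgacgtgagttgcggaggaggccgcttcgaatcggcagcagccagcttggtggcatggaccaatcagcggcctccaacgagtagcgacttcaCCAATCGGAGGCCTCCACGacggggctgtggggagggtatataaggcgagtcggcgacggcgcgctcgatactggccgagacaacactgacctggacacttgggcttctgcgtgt

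The *Hspa1a* and *Hspa1b* promoters were identical at 296 of 300 bases, and both held the same heat shock match starting at −104, counting the transcription start as +1. Their coding sequences were as close, with 1915 identical bases, 8 substituted bases and a gap of 3 bases over 1926 aligned columns (99.4% identical). *Hsph1* has 2 promoter entries with the same 3 matches, at −33, 37 and 42 in the one shown and at −54, 16 and 21 in the other, of which the last pair overlap as 3 units in a row, and *Hspb1* held 2, at −117 and −97. Among the 32851 promoters of the same length, 15.06% held at least 1 heat shock match, 1.96% at least 2, 0.256% at least 3 and 0.603% 3 units in a row. *Hspa5* held 1 ER stress response element at −65, which 0.119% of the promoters held. *Dnajb1* has 2 promoter entries and neither held these letters. A match describes the sequence only and says nothing of HSF1 binding in these samples. *Hspa8*, *Hsp90aa1* and *Hsf1* had no promoter entry.

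Between 73590509 and 125724156 counts were available in a sample, of which the 9 members together took 0.198% to 0.245%. The lowest count of any member in any sample was 491, for *Hspa1b*, so that counting error is small beside the spread between samples. Levels are given in CPM, the count of a gene relative to the TMM-scaled library size of its sample. The count table numbers its libraries in 2 runs, from 27 to 35 and from 188 to 196, called library series here. Samples 1 to 3 of every group are in the first series and samples 4 to 6 in the second. Markers of spinal cord were present in all samples, with 3856 to 4768 CPM summed over 5 neuronal genes, 2771 to 3623 over 5 astrocyte genes and 27509 to 34983 over 5 oligodendrocyte genes. Markers of neighbouring tissue varied more, at 17.7 to 135 CPM for motor neurons and 1213 to 4456 for Schwann cells. Those of sensory neurons, 4 genes after the filter on low counts, ran from 12.4 to 494 CPM. The highest sensory neuron value was that of F1/proestrus sample 5, and the other 17 samples had at most 65.3 CPM. In bulk tissue, fewer cells of a type and less RNA per cell cannot be told apart.

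Per length, the constitutive and ER members stood far above the inducible Hsp70 genes. In CPM per kb of exon, *Hspa8* had the highest level, 165 ± 14.2 (SD, n = 18), at the 99.0th percentile of 24849 genes. *Hspa5* followed at 146 ± 14.5 and *Hsp90aa1* at 71.3 ± 7.0. The co-chaperones came next, *Hsph1* at 57.3 ± 3.34 and *Dnajb1* at 24.2 ± 3.12. Below them lay *Hspb1* at 10.0 ± 2.49 and *Hsf1* at 6.23 ± 0.435. *Hspa1a* at 4.50 ± 0.745 and *Hspa1b* at 3.76 ± 1.37 closed the order, near the 60.3th and 57.1th percentiles. *Hspa8* exceeded the sum of *Hspa1a* and *Hspa1b* by 13.1-fold to 29.6-fold, depending on the sample. These folds leave out the counts of its pseudogene described below, with which *Hspa8* averaged 523 CPM per kb.

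**Figure D1:**
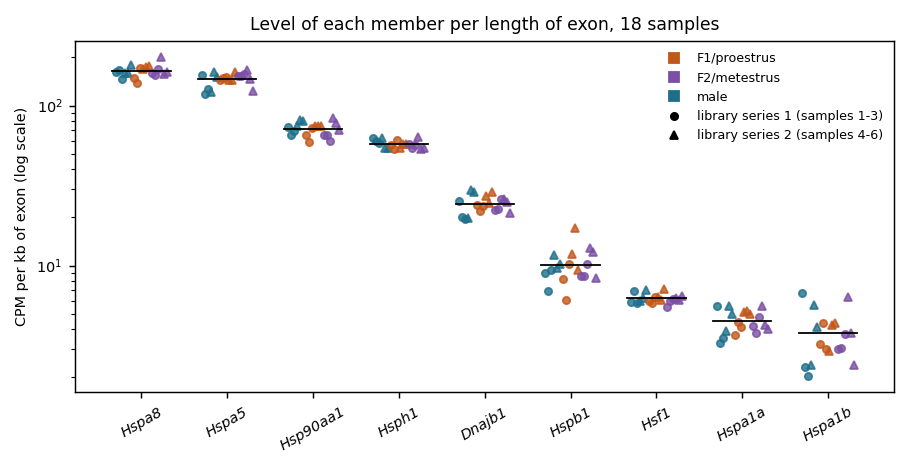
Level of each member per kb of exon (CPM per kb, log axis), with 1 point per sample colored by group and a bar at the mean of the 18 samples. *Hspa8* and *Hspa5* lie above 100 CPM per kb in all samples, and *Hspa1a* and *Hspa1b* have the lowest means.

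Neighbours in this order mostly overlapped. The ranges over the 18 samples were separate for *Hspa5* above *Hsp90aa1*, *Hsph1* above *Dnajb1* and *Dnajb1* above *Hspb1*, and overlapped for the other 5 neighbouring pairs. Within a sample, *Hspa8* was above *Hspa5* in 16 of 18 samples and *Hspa1a* above *Hspa1b* in 15 of 18. For each of the other 6 neighbouring pairs the order held in 18 of 18 samples. These levels depend on how reads were assigned among similar genes. With the counts of the similar pseudogenes described next added, per kb of the member's own exons, *Hsp90aa1* reached 164 ± 12.5 CPM per kb (SD, n = 18) and stood above *Hspa5* in 16 of 18 samples, and *Hspb1* reached 26.3 ± 6.07 CPM per kb (SD, n = 18) and stood above *Dnajb1* in 10 of 18, with overlapping ranges for both pairs. The orders of *Hspa5* with *Hsp90aa1* and of *Dnajb1* with *Hspb1* therefore rest on that assignment. *Hspa8* stayed first, at 523 ± 31.4 CPM per kb (SD, n = 18), and the order of *Hsph1* above *Dnajb1* was not touched.

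On mm10 (GRCm38, GENCODE vM21), *Hspa1a* is at chr17:34969190-34972156 and *Hspa1b* at chr17:34956436-34959238, both as 1 exon on the minus strand with 9951 bases between them. Of all 100-base stretches of their exons, 56.5% for *Hspa1a* and 49.9% for *Hspa1b* also occur in another gene. In each other these shares were 47.1% and 49.9%. At 50 bases 66.3% and 62.3% occur in another gene. Both strands were searched, so a gene that overlaps a member in place is counted too. A read wholly within a stretch that the pair shares cannot be placed uniquely. Both counts therefore rest on the remaining bases, and the split between the pair is uncertain. *Gm20481*, a protein-coding gene on the opposite strand (chr17:34969912-34972136), lies wholly within the exon of *Hspa1a*. Its exons cover 564 bases of *Hspa1a* (19.0%), and it had 2.45 to 5.01 CPM of total counts in these samples. The labels describe a library kit that does not mark the strand, and the strand setting of the counting is not given in the sources used here, so reads of *Hspa1a* and *Gm20481* cannot be told apart over these bases.

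Processed pseudogenes, copies of spliced mRNAs elsewhere in the genome, drew more counts than the gene they resemble in 18 of 18 samples for each of 3 members. *Hspa8* (chr9:40800984-40810087, plus strand) averaged 708 ± 60.9 CPM (SD, n = 18) and its pseudogene *Gm15459* (chr5:5781615-5783555) 1541 ± 85.8 CPM. *Hsp90aa1* (chr12:110690605-110702728, minus strand) averaged 280.5 ± 27.5 CPM and *Gm12346* (chr11:77293444-77295898) 365 ± 24.6 CPM. *Hspb1* (chr5:135887919-135889563, plus strand) averaged 10.3 ± 2.57 CPM and *Hsp25-ps1* (chr13:45078498-45079127) 16.8 ± 3.81 CPM. The share of 100-base stretches found in another gene was 28.5% for *Hspa8*, 38% for *Hsp90aa1* and 44.0% for *Hspb1*. Where the reads counted on the pseudogenes came from was not tested, and the levels of these 3 members are uncertain to that extent. *Hsph1* (chr5:149614287-149636376, minus strand), *Dnajb1* (chr8:83608193-83612653, plus strand), *Hspa5* (chr2:34771970-34777547, plus strand) and *Hsf1* (chr15:76477422-76501913, plus strand) shared no 100-base stretch with another gene.

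The first question was whether the members differed between the sexes, as the design compares males with all females. No member passed the edgeR quasi-likelihood test: 0 of 9 members passed an FDR of 5% and 0 had an unadjusted p under 0.05, against 49 of 24862 genes called in this comparison (0.197%). DESeq2 called 0 members too. The log2 fold changes of the members lay between -0.12 and 0.071, with a median of -0.0097, and their median size of 0.055 stood beside 0.092 over all genes tested. The second question was whether the classes of females differed. Here 0 of 9 members passed, 0 had an unadjusted p under 0.05 and DESeq2 called 0, in a comparison that called 0 of 24042 genes (0%) in edgeR and 2 in DESeq2. An unadjusted p under 0.05 was found for 596 genes. The log2 fold changes of the members lay between -0.062 and 0.036. Adjusted p-values in the following paragraphs are Benjamini-Hochberg values of the edgeR test over all genes tested, and fold changes are log2 of males over females or of F2/metestrus over F1/proestrus.

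**Figure D2:**
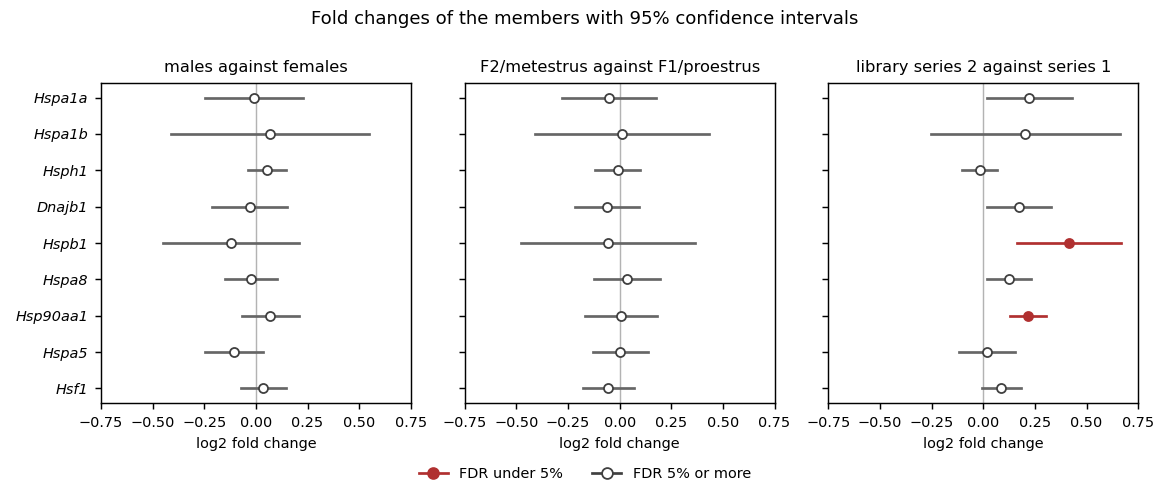
Log2 fold change of each member (x axis) in the comparison of the sexes, of the female classes and of the library series, with 95% intervals from edgeR. All intervals of the first 2 comparisons include 0, and the filled points, *Hsp90aa1* and *Hspb1* in the library series, are past an FDR of 5%.

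*Hspa1b*, an inducible Hsp70 gene, had the widest spread of the 9 members, and it was widest among males. *Hspa1b* averaged 10.9 ± 5.57 CPM in males (SD, n = 6), with a lowest sample of 5.70, a median of 9.09 and a highest sample of 19.0 CPM. For *Hspa1b*, F1/proestrus females averaged 10.3 ± 1.97 CPM (SD, n = 6), with a lowest sample of 8.20, a median of 10.5 and a highest sample of 12.2 CPM. Levels of *Hspa1b* in F2/metestrus females averaged 10.4 ± 3.91 CPM (SD, n = 6), with a lowest sample of 6.72, a median of 9.52 and a highest sample of 17.9 CPM. Males fell into 3 high and 3 low samples: males 1, 5 and 6 had 19.0, 15.9 and 11.5 CPM, and males 2, 3 and 4 had 6.52, 5.70 and 6.66 CPM, below all 12 females. The highest sample of all, male 1, exceeded the lowest, male 3, by 3.33-fold. The coefficient of variation of *Hspa1b* was 51.2% in males and 28.4% in females, and this difference in spread was not tested. The male to female log2 fold change was 0.070 (SE 0.23, 95% interval -0.41 to 0.55, adjusted p = 0.934). It turned from positive to -0.17 without male 1 and to -0.071 without male 5. Between the female classes it was 0.013 (SE 0.20, 95% interval -0.41 to 0.43, adjusted p = 1.0), and it turned to -0.21 without F2/metestrus sample 4, whose 17.9 CPM stood apart from the other 5.

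**Figure D3:**
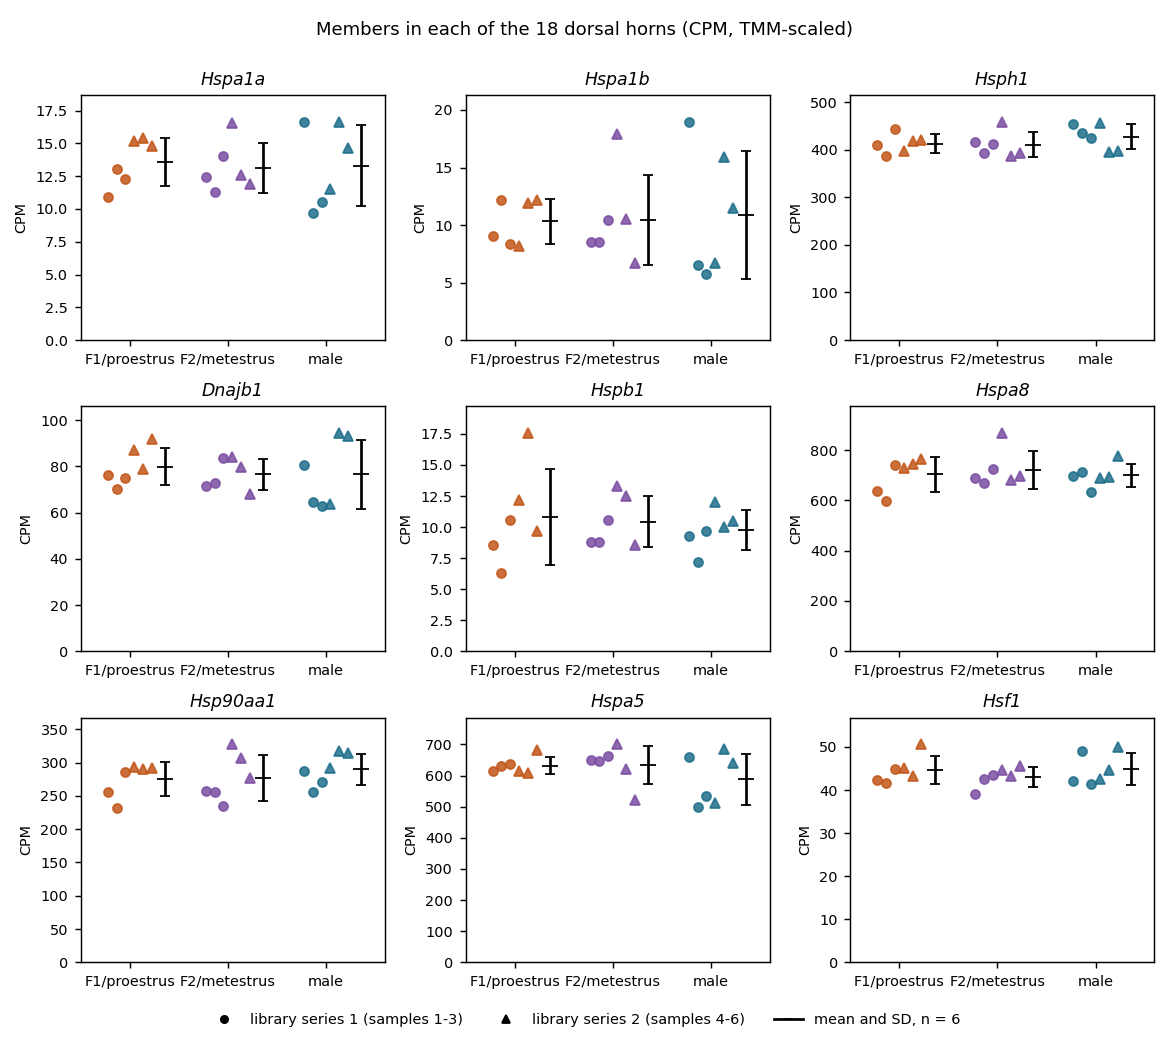
Level of each of the 9 members in CPM (y axis, from 0) in every sample, by group, with the group mean and SD; symbols separate the library series. The groups overlap for every member, and relative to its mean the spread of *Hspa1b* in males is the widest.

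*Hspa1a* varied with *Hspa1b* but less widely. *Hspa1a* averaged 13.3 ± 3.09 CPM in males (SD, n = 6), with a lowest sample of 9.72, a median of 13.1 and a highest sample of 16.7 CPM. For *Hspa1a*, F1/proestrus females averaged 13.6 ± 1.82 CPM (SD, n = 6), with a lowest sample of 10.9, a median of 13.9 and a highest sample of 15.4 CPM. Levels of *Hspa1a* in F2/metestrus females averaged 13.1 ± 1.90 CPM (SD, n = 6), with a lowest sample of 11.3, a median of 12.5 and a highest sample of 16.5 CPM. Males 1 and 5 were above all females and males 2 and 3 below all females, so the male range enclosed that of the females. The male to female log2 fold change was -0.0097 (SE 0.11, 95% interval -0.25 to 0.23, adjusted p = 0.983), and that of the female classes -0.053 (SE 0.11, 95% interval -0.28 to 0.17, adjusted p = 1.0). The direction of the first depended on single samples, from -0.092 without male 1 to 0.060 without male 2. With the counts of *Hspa1a* and *Hspa1b* added, which removes the question of how reads were split between them, the sum averaged 23.9 ± 5.85 CPM (SD, n = 18). Its log2 fold change was 0.025 between the sexes (edgeR adjusted p = 0.967) and -0.024 between the female classes (adjusted p = 1.0).

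*Dnajb1*, the J-domain partner of Hsp70, also split the males. *Dnajb1* averaged 76.6 ± 14.9 CPM in males (SD, n = 6), with a lowest sample of 62.8, a median of 72.8 and a highest sample of 94.6 CPM. For *Dnajb1*, F1/proestrus females averaged 79.9 ± 8.03 CPM (SD, n = 6), with a lowest sample of 70.1, a median of 77.6 and a highest sample of 91.7 CPM. Levels of *Dnajb1* in F2/metestrus females averaged 76.6 ± 6.75 CPM (SD, n = 6), with a lowest sample of 68.1, a median of 76.1 and a highest sample of 83.9 CPM. Males 5 and 6 were above all 12 females and males 2, 3 and 4 below all of them, while male 1 lay within their range. The log2 fold change between the sexes was -0.031 (SE 0.0881, 95% interval -0.21 to 0.15, adjusted p = 0.924). That of the female classes was -0.062 (SE 0.0730, 95% interval -0.22 to 0.094, adjusted p = 1.0). It changed sign between the sexes without male 2, 3 or 4 (0.0074 to 0.015).

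*Hsph1*, the nucleotide exchange partner, was the steadiest member. It averaged 427 ± 26.5 CPM in males, 413 ± 19.9 CPM in F1/proestrus and 410.1 ± 26.5 CPM in F2/metestrus females (SD, n = 6 each). Over all samples it ran from 386 to 459 CPM with a median of 414, a ratio of highest to lowest of 1.19. Its males and females overlapped, with 4 of 6 males above the female median. The log2 fold changes were 0.055 (SE 0.0439, 95% interval -0.037 to 0.15, adjusted p = 0.690) between the sexes and -0.010 (SE 0.0511, 95% interval -0.12 to 0.10, adjusted p = 1.0) between the female classes. Its biological coefficient of variation within groups, edgeR's estimate of the spread beyond counting error, was 0.0718, at the 3.81th percentile of 24862 genes. That of *Hspa1b* was 0.328, at the 84.8th percentile, and the median of all genes was 0.146. In order of this measure the other members were *Hspb1* (0.226), *Hspa1a* (0.166), *Dnajb1* (0.129), *Hspa5* and *Hsp90aa1* (both 0.102), *Hspa8* (0.0929) and *Hsf1* (0.0826).

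*Hspb1*, the small heat shock protein, lay near 10 CPM in all groups. *Hspb1* averaged 9.77 ± 1.58 CPM in males (SD, n = 6), with a lowest sample of 7.18, a median of 9.85 and a highest sample of 12.0 CPM. For *Hspb1*, F1/proestrus females averaged 10.8 ± 3.87 CPM (SD, n = 6), with a lowest sample of 6.29, a median of 10.1 and a highest sample of 17.6 CPM. Levels of *Hspb1* in F2/metestrus females averaged 10.4 ± 2.05 CPM (SD, n = 6), with a lowest sample of 8.57, a median of 9.70 and a highest sample of 13.3 CPM. F1/proestrus held both the highest and the lowest sample of the series, sample 5 with 17.6 and sample 2 with 6.29 CPM, a ratio of 2.80. Sample 5 is the one with the high sensory neuron markers (494 CPM against at most 65.3), whose part in its *Hspb1* level was not tested. Sample 2 had the lowest motor neuron markers of the females (25.4 CPM, against a median of 96.5 over all samples), whose part was not tested either. The r of *Hspb1* with these markers was 0.49 over the 18 samples and 0.78 after centring on group and series, neither past an FDR of 5% in permutation tests. The log2 fold change between the sexes was -0.12 (SE 0.16, 95% interval -0.45 to 0.21, adjusted p = 0.819), and -0.031 without F1/proestrus sample 5. Between the female classes it was -0.057 (SE 0.20, 95% interval -0.48 to 0.37, adjusted p = 1.0), and 0.14 without the same sample, so its direction rests on 1 library.

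*Hspa8*, the constitutive Hsp70, was nearly level across groups. *Hspa8* averaged 699 ± 45.9 CPM in males (SD, n = 6), with a lowest sample of 633, a median of 694 and a highest sample of 775 CPM. For *Hspa8*, F1/proestrus females averaged 703 ± 67.6 CPM (SD, n = 6), with a lowest sample of 599, a median of 735 and a highest sample of 764 CPM. Levels of *Hspa8* in F2/metestrus females averaged 721 ± 74.7 CPM (SD, n = 6), with a lowest sample of 668, a median of 693 and a highest sample of 869 CPM. F2/metestrus sample 4 stood above every other sample, F1/proestrus sample 2 was the lowest, and the ranges of the groups overlapped. The log2 fold changes were -0.026 (SE 0.0605, 95% interval -0.15 to 0.10, adjusted p = 0.907) between the sexes and 0.036 (SE 0.0748, 95% interval -0.12 to 0.20, adjusted p = 1.0) between the female classes. Without F2/metestrus sample 4 they were 0.0033 and -0.025. With the counts of *Gm15459* added they were -0.027 (edgeR adjusted p = 0.867) and 0.013 (adjusted p = 1.0).

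*Hsp90aa1*, the inducible Hsp90, overlapped between all groups. *Hsp90aa1* averaged 289.7 ± 23.8 CPM in males (SD, n = 6), with a lowest sample of 256, a median of 289 and a highest sample of 318 CPM. For *Hsp90aa1*, F1/proestrus females averaged 275 ± 25.2 CPM (SD, n = 6), with a lowest sample of 232, a median of 289 and a highest sample of 293 CPM. Levels of *Hsp90aa1* in F2/metestrus females averaged 277 ± 34.8 CPM (SD, n = 6), with a lowest sample of 235, a median of 267 and a highest sample of 328 CPM. Of the 6 males, 4 were above the female median, and 4 of the 12 females were below all males. The log2 fold change was 0.071 (SE 0.0674, 95% interval -0.070 to 0.21, adjusted p = 0.740) between the sexes and 0.0074 (SE 0.0812, 95% interval -0.17 to 0.18, adjusted p = 1.0) between the female classes. With *Gm12346* added, these became 0.065 (edgeR adjusted p = 0.702) and -0.013 (adjusted p = 1.0).

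*Hspa5*, the Hsp70 of the ER, had its lowest values in males. *Hspa5* averaged 588 ± 82.0 CPM in males (SD, n = 6), with a lowest sample of 499.9, a median of 588 and a highest sample of 684 CPM. For *Hspa5*, F1/proestrus females averaged 631 ± 27.5 CPM (SD, n = 6), with a lowest sample of 608, a median of 623 and a highest sample of 682 CPM. Levels of *Hspa5* in F2/metestrus females averaged 634 ± 60.8 CPM (SD, n = 6), with a lowest sample of 522, a median of 648 and a highest sample of 702 CPM. Males 2, 3 and 4 and F2/metestrus sample 6 formed a low set of 4 samples between 499.9 and 535 CPM, and the other 14 samples lay between 608 and 702 CPM. The same 3 males were lowest of all samples in *Hspa1b* and *Dnajb1*, and F2/metestrus sample 6 was the lowest female in both. The log2 fold change between the sexes was -0.10 (SE 0.0676, 95% interval -0.24 to 0.036, adjusted p = 0.615), from -0.16 without male 5 to -0.068 without male 2. For the female classes it was 0.0034 (SE 0.0625, 95% interval -0.13 to 0.14, adjusted p = 1.0).

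*Hsf1*, the regulator, varied little. It averaged 44.9 ± 3.74 CPM in males, 44.7 ± 3.30 CPM in F1/proestrus and 43.0 ± 2.25 CPM in F2/metestrus females (SD, n = 6 each), and ran from 39.0 to 50.7 CPM over all samples with a median of 43.4. The groups overlapped, with 3 of 6 males above the female median. The log2 fold changes were 0.036 (SE 0.0531, 95% interval -0.075 to 0.15, adjusted p = 0.843) between the sexes and -0.055 (SE 0.0578, 95% interval -0.18 to 0.068, adjusted p = 1.0) between the female classes. HSF1 is controlled mainly at the level of the protein, by trimerization and phosphorylation, which counts of its mRNA do not measure.

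Whether a member's sex or class difference itself changed between the library series was tested with an interaction term in edgeR. For the sexes 0 of 9 members passed, the smallest adjusted p being 0.970, as did 0 of all 26075 genes (0%). For the female classes 0 of 9 passed, all at an adjusted p of 1.0, beside 2 of 25332 genes (0.0079%). No member had an unadjusted p under 0.05 in either. Within the first series alone the log2 fold changes of the members between the sexes lay between -0.19 (*Hspa5*) and 0.12 (*Hspa1b*), and within the second alone between -0.18 (*Hspb1*) and 0.052 (*Hsp90aa1*). Between the female classes they lay between -0.11 (*Hspa1b*) and 0.15 (*Hspb1*) in the first series and between -0.20 (*Hspb1*) and 0.12 (*Hspa1b*) in the second. No member was called within a series (3 samples a group), where between the sexes 16 of 25454 genes (0.0629%) were called in the first and 13 of 24465 (0.0531%) in the second, and between the female classes 0 in both.

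The library series themselves differed in many genes, 6774 of 25180 (26.9%) at an FDR of 5%, in a fit with the group as covariate. Of the 9 members 2 were called (22.2%), a share near that of all genes. *Hsp90aa1* averaged 259.8 ± 19.2 CPM in the first series, with a lowest sample of 232, a median of 256 and a highest sample of 287 CPM (n = 9). In the second series *Hsp90aa1* averaged 301 ± 16.5 CPM, with a lowest sample of 276, a median of 293 and a highest sample of 328 CPM (n = 9). Of the 9 samples of the second series, 8 were above every sample of the first. The log2 fold change, second over first series, was 0.22 (SE 0.0418, 95% interval 0.13 to 0.30, adjusted p = 0.000664), and 0.14 with *Gm12346* added (adjusted p = 0.0153). *Hspb1* averaged 8.86 ± 1.43 CPM in the first and 11.8 ± 2.66 CPM in the second series (SD, n = 9 each), a log2 fold change of 0.41 (SE 0.12, 95% interval 0.16 to 0.67, adjusted p = 0.0148). It remained called on leaving out each of the 18 samples in turn, at 0.32 without F1/proestrus sample 5, but not with the counts of *Hsp25-ps1* added (0.26, edgeR adjusted p = 0.134).

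The other 7 members did not pass. Estimates of 0.17 for *Dnajb1*, 0.12 for *Hspa8* and 0.22 for *Hspa1a* had unadjusted p-values under 0.05 and edgeR adjusted p-values of 0.0972, 0.0729 and 0.103. Single samples carried these across the threshold: *Dnajb1* was called without male 4, F2/metestrus sample 3 or F2/metestrus sample 6 (adjusted p 0.0269 to 0.0487), *Hspa8* without F1/proestrus sample 3 or F2/metestrus sample 5 (0.0309 and 0.0336) and *Hspa1a* without male 1 (0.0160). With the counts of *Gm15459* added, the estimate of *Hspa8* was 0.019 (adjusted p = 0.793). The log2 fold changes of *Hspa1b*, *Hsf1*, *Hspa5* and *Hsph1* were 0.20, 0.088, 0.018 and -0.017. What differed between the series besides the library numbers is not given in the sources used here. Because each group has 3 samples in each series, the series do not coincide with sex or class.

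Other chaperone genes were read in 3 lists: 20 further genes of the heat shock response, 20 of ER folding and the unfolded protein response, and 22 constitutive chaperones. Between the sexes 0 of these 62 passed an FDR of 5% in edgeR, against the 0.197% of all genes, and 3 had an unadjusted p under 0.05. In the heat shock list the smallest p-values were those of *Hspa4*, an Hsp110 relative, with -0.13 (SE 0.0563, adjusted p = 0.465), and *Cryab*, a small heat shock protein, with 0.24 (SE 0.10, adjusted p = 0.473). In the ER list they were those of *Eif2ak3*, the stress sensor PERK, with -0.095 (SE 0.0472, adjusted p = 0.520), and the lectin chaperone *Canx*, with -0.11 (SE 0.0583, adjusted p = 0.542). In the constitutive list they were those of mitochondrial *Hspa9*, with -0.088 (SE 0.0361, adjusted p = 0.432), and the chaperonin subunit *Cct8*, with -0.068 (SE 0.0372, adjusted p = 0.555). Between the female classes 0 of 62 passed and 0 had an unadjusted p under 0.05, where DESeq2 called 2 genes in all. The smallest p-values there were those of the collagen chaperone *Serpinh1* (log2 fold change 0.14) and *Hspa4l* (0.067), of *Atf4* (-0.10) and *Pdia4* (0.071), and of *Hspa14* (0.087) and *Trap1* (0.079). The edgeR adjusted p was 1.0 for each of these 6 genes.

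Between the library series, 25 of the 62 passed (40.3%), 17 higher and 8 lower in the second series, where 26.9% of all genes passed. In the heat shock list 5 were higher, the Hsp70 and Hsp90 co-chaperones *Hspbp1* with 0.26 (SE 0.0466, adjusted p = 0.000376), *Fkbp4* with 0.17 (SE 0.0380, adjusted p = 0.00219), *Stip1* with 0.11 (SE 0.0327, adjusted p = 0.0138) and *Ahsa1* with 0.14 (SE 0.0448, adjusted p = 0.0251), and *Cryab* with 0.30 (SE 0.0751, adjusted p = 0.00564). In the same list 3 were lower, *Hsf2*, a relative of *Hsf1*, with -0.56 (SE 0.13, adjusted p = 0.00290), *Dnajb5* with -0.30 (SE 0.0677, adjusted p = 0.00265) and *Hspa4l* with -0.18 (SE 0.0512, adjusted p = 0.0108). Of the ER list 3 were higher (*Atf4* by 0.21, *Dnajb11* by 0.14, *Ddit3* by 0.14) and 4 lower (*Hyou1* at -0.34, *Ern1* at -0.43, *Atf6* at -0.25, *Canx* at -0.13). Of the constitutive list 9 were higher, the ubiquitin ligase *Stub1* (0.19), the Hsp90 partner *Cdc37* (0.22), *Dnajb2* (0.19), *Bag1* (0.13) and the chaperonin genes *Cct2* (0.17), *Cct3* (0.11), *Cct5* (0.13), *Cct6a* (0.087) and *Tcp1* (0.095), and *Hspa12a* was lower (-0.24). *Hsp90aa1* and these co-chaperones were thus among 3567 genes that were higher in the second series.

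Across the 18 samples the members did not vary as 1 group. Of the 36 pairs, 8 were correlated at an FDR of 5% (Pearson r of log2 CPM, two-sided permutation test with 100000 resamples), all positively, and the median r over the 36 was 0.38. The inducible Hsp70 genes, *Dnajb1* and *Hspa5* formed 1 block, in which all 6 pairs passed. The remaining called pairs were *Hspb1* with *Hsp90aa1* and *Hspa8* with *Hsp90aa1*. *Hsph1* was correlated with no member, at r from -0.21 to 0.41, and *Hsf1* with none by Pearson's r. By Spearman's rho 11 pairs passed, the block, *Hspb1* with *Hsp90aa1* and 4 others. These were *Hspa8* with *Hsf1* (rho = 0.72, permutation adjusted p = 0.0090), *Dnajb1* with *Hspa8* (rho = 0.60, adjusted p = 0.0397), and *Hspa1a* and *Dnajb1* with *Hsp90aa1* (rho = 0.57 and adjusted p = 0.0497 for both).

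**Figure D4:**
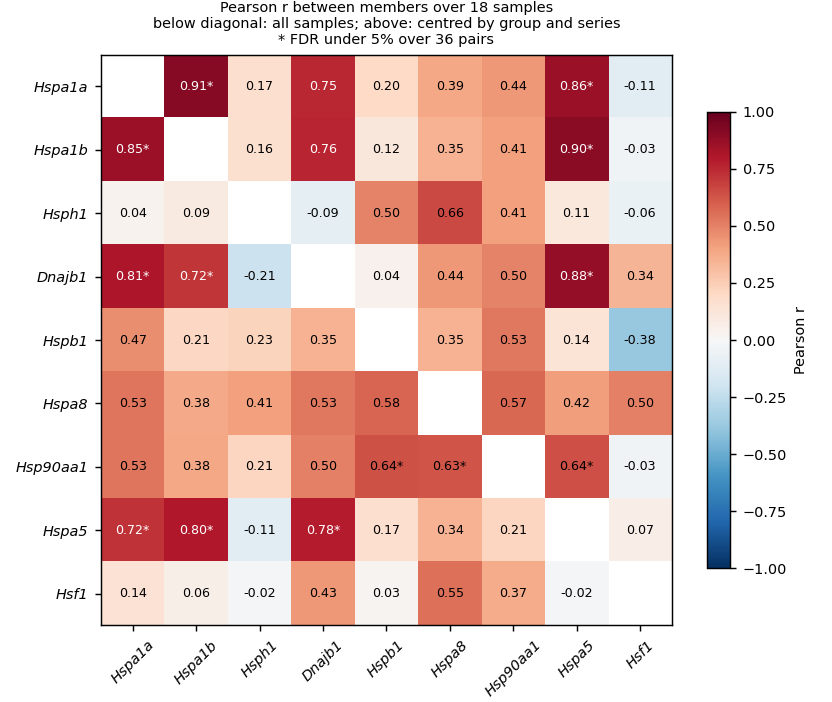
Pearson r of log2 CPM between members over the 18 samples, below the diagonal as measured and above it after centring on group and library series, with an asterisk at an FDR under 5% over the 36 pairs. Below the diagonal, *Hspa1a*, *Hspa1b*, *Dnajb1* and *Hspa5* have r from 0.72 to 0.85 with each other, and *Hsph1* has no r above 0.41 with another member.

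*Hspa1a* and *Hspa1b* were the closest pair (r = 0.85, rho = 0.82, permutation p = 2.00e-05 and 0.000110, adjusted p = 0.000720 and 0.00288). Leaving out the 2 samples farthest from the median of *Hspa1a*, males 1 and 2, gave r = 0.82, and r was 0.91 within the first and 0.84 within the second library series. They share sequence, and how the assignment of reads bears on this r was not tested. *Hspa1b* with *Hspa5* had r = 0.80, rho = 0.76, permutation p = 9.00e-05 and 0.000390, adjusted p = 0.00108 and 0.00468, and r = 0.81 without the 2 farthest samples, 0.69 and 0.92 within the series. For *Dnajb1* with *Hspa5* the values were r = 0.78, rho = 0.70, permutation p = 0.000160 and 0.00171, adjusted p = 0.00144 and 0.0103, with r = 0.69 without the 2 farthest, 0.81 and 0.90 within the series. *Dnajb1* and *Hspa5* lie on separate chromosomes and share no 100-base stretch, and their proteins work in separate compartments.

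The other 3 pairs of the block were *Hspa1a* with *Dnajb1* (r = 0.81, rho = 0.79, permutation adjusted p = 0.00108 and 0.00288, within series 0.75 and 0.82), *Hspa1a* with *Hspa5* (r = 0.72, rho = 0.64, adjusted p = 0.00475 and 0.0249, within series 0.76 and 0.87) and *Hspa1b* with *Dnajb1* (r = 0.72, rho = 0.71, adjusted p = 0.00570 and 0.010, within series 0.72 and 0.73). Without the 2 samples farthest in the first gene of each pair, r was 0.81, 0.63 and 0.80. Leaving out the 4 samples low in *Hspa5*, of which 3 are the low males, cuts the range of a correlated gene. This tends to lower r in the block whatever its origin, so the lower values here and below decide nothing about it. Among the other 14 samples, 2 of the 36 pairs passed, *Hspa1a* with *Hspa1b* (r = 0.77, permutation adjusted p = 0.0211) and *Dnajb1* with *Hsf1* (r = 0.78, adjusted p = 0.0211). In these 14 samples r was 0.61 for *Hspa1b* with *Hspa5* (adjusted p = 0.0902), 0.41 for *Dnajb1* with *Hspa5* (adjusted p = 0.241), 0.48 for *Hspa1a* with *Hspa5* (adjusted p = 0.201), 0.40 for *Hspa1b* with *Dnajb1* (adjusted p = 0.248) and 0.68 for *Hspa1a* with *Dnajb1* (adjusted p = 0.0734).

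The pairs of *Hsp90aa1* called over the 18 samples had a lower r within each library series. *Hspb1* with *Hsp90aa1* had r = 0.64, rho = 0.69, permutation p = 0.00426 and 0.00202, adjusted p = 0.0219 and 0.0104, but within the series r was 0.49 and 0.18, and 0.53 after centring on group and series (adjusted p = 0.235). *Hspa8* with *Hsp90aa1* had r = 0.63, rho = 0.53, permutation p = 0.00493 and 0.0240, adjusted p = 0.0222 and 0.0664, with r = 0.38 and 0.50 within the series and 0.35 without F1/proestrus sample 2 and F2/metestrus sample 4, on which it rests. After centring on group and series, r of *Hspa8* with *Hsp90aa1* was 0.57 (permutation adjusted p = 0.333). Both *Hsp90aa1* and *Hspb1* differed between the series. After centring, 5 pairs passed: *Hspa1a* with *Hspa1b*, *Hspa1a*, *Hspa1b* and *Dnajb1* with *Hspa5*, and *Hsp90aa1* with *Hspa5* (r = 0.64, permutation adjusted p = 0.0425). Before centring, *Hsp90aa1* with *Hspa5* had r = 0.21 (permutation adjusted p = 0.548). Its r was -0.074 within the first series and 0.73 within the second.

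The members were then set against the 62 other chaperone genes, a comparison chosen after the pairs among members had been seen. Of the 558 relations, 104 passed an FDR of 5% by Pearson's r and 92 by Spearman's rho (permutation tests, adjusted over the 558). After centring on group and series 26 passed, of which 7 were of *Hspa8*, 6 of *Hspa5*, 5 of *Dnajb1*, 2 each of *Hspb1* and *Hsp90aa1* and 1 each of the other 4 members. Before centring, the share of all 17762 genes at an r of at least 0.6 ran from 0.614% for *Hspa1b* to 15.9% for *Hsp90aa1*. The share at an r of -0.6 or lower ran from 0.388% for *Hsph1* to 10.6% for *Hsp90aa1*. *Hspa5* was correlated with 10 of the 20 ER genes, all positively, and with 2 of the other 42. Among these were *Xbp1* (r = 0.87, rho = 0.72, 0.48 without the 4 samples), the transcription factor of the unfolded protein response, *Sdf2l1* (r = 0.84, rho = 0.72, 0.56 without the 4 samples), a partner of BiP, *Manf* (r = 0.81, rho = 0.61, 0.35 without the 4 samples), a secreted ER stress protein, and *Pdia6* (r = 0.79, rho = 0.85, 0.77 without the 4 samples), a disulfide isomerase, where the last value of each is over the 14 samples that were not low in *Hspa5*. All 4 passed at permutation adjusted p-values from 0.000797 to 0.00377. An r of at least 0.6 was reached by 9 of the 20 ER genes (45%) and by 0.974% of all 17762 genes, and over the 14 samples by 3 of 20 (15%) and 2.01%. Within the library series the r with *Xbp1* was 0.94 and 0.90.

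*Dnajb1*, a cytosolic co-chaperone, passed with 10 of the 20 ER genes, 9 positively and 1 negatively, and with 2 of the 20 genes of the heat shock list, which holds mitochondrial *Hspd1* and *Hspe1* and the ER chaperone *Serpinh1* beside cytosolic genes. The difference in counts was not tested, and the median r of *Dnajb1* was 0.44 over the ER list and 0.39 over the heat shock list. With *Xbp1* it reached r = 0.91 (rho = 0.90, permutation adjusted p = 0.000797, 0.89 without the 2 farthest samples, 0.77 and 0.98 within the series, 0.81 over the 14 samples). Its r was 0.89 with *Creld2*, 0.88 with *Manf* and 0.86 with *Pdia6*, and it was negative with the stress sensor *Atf6* (-0.68). An r of at least 0.6 with *Dnajb1* was reached by 45% of the ER list, 10% of the heat shock list and 4.13% of all 17762 genes. Over the 14 samples it was reached by 45%, 25% and 21.4%. The ER list then split in direction, with r of -0.86 for *Atf6*, -0.82 for *Canx*, -0.72 for *Hyou1*, -0.68 for *Ern1* and -0.62 for *Eif2ak3*. The median r of *Dnajb1* over the 14 samples was 0.20 for the ER list, 0.037 for the heat shock list and 0.046 for all genes. *Hspa1a* passed with 8 and *Hspa1b* with 7 of the 20 ER genes, and with 2 and 0 of the 20 heat shock genes. With *Hspa1a*, 40% of the ER list, 10% of the heat shock list and 1.5% of all genes reached an r of 0.6. Over the 14 samples the order of the lists turned at this cut, at 15% (ER), 25% (heat shock) and 10% (all genes). By median r the order did not turn, at 0.35 for the ER list and 0.093 for the heat shock list. Over the 18 samples these medians were 0.43 and 0.35. For *Hspa1b* the highest was *Sdf2l1* (r = 0.77). An r of 0.6 with *Hspa1b* was reached by 30% of the ER list and 0.614% of all genes. Over the 14 samples 0 of the 20 ER genes and 1.26% of all genes reached it, at a median r of 0.27 and 0.037. The samples left out are the lowest in *Hspa1b*, which narrows its range, so the lower ER share decides nothing about this relation.

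**Figure D5:**
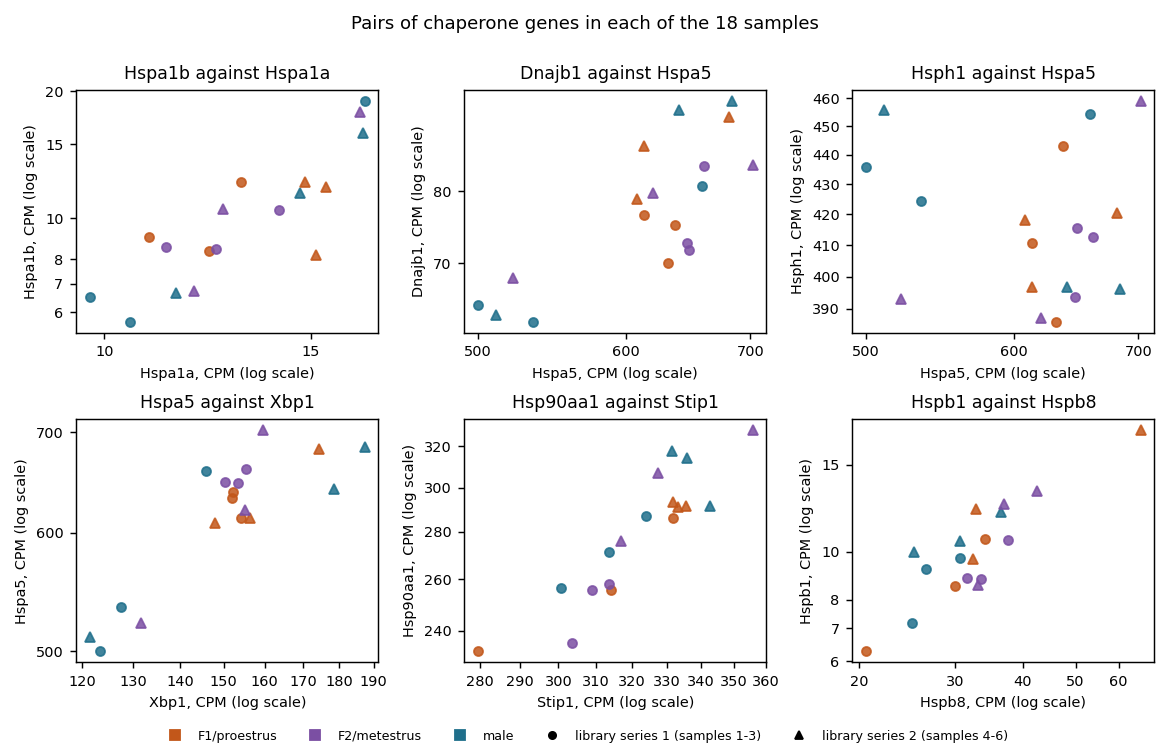
Levels of 6 pairs of genes in the 18 samples (CPM on log axes), colored by group, with circles for the first and triangles for the second library series. In the pairs with *Hspa5*, males 2, 3 and 4 and F2/metestrus sample 6 lie apart at 500 to 535 CPM of *Hspa5*, and *Hsph1* shows no slope against *Hspa5*.

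The other members went with different partners. *Hspb1* was closest to *Hspb8*, another small heat shock protein (r = 0.88, rho = 0.76, permutation adjusted p = 0.000797), with r = 0.70 without the 2 farthest samples. *Hspb8* was highest in F1/proestrus sample 5, as *Hspb1* was, at 65.9 CPM against at most 42.4 in the other samples. The r of *Hspb1* with *Bag3*, the co-chaperone that binds small heat shock proteins, fell from 0.71 to 0.28 without the 2 farthest samples and so rests on them. *Hspb1* was negatively correlated with *Dnajb5* (r = -0.81, -0.67 without the 2 farthest). *Hsp90aa1* passed with 23 of the 62, the most of any member, 19 positively and 4 negatively. It was closest to its co-chaperones *Stip1* (r = 0.90, within series 0.87 and 0.63) and *Fkbp4* (r = 0.86, within series 0.75 and 0.62), neither of which passed after centring (r = 0.84 and 0.67, adjusted p = 0.101 and 0.216). An r of at least 0.6 with *Hsp90aa1* was reached by 45.5% of the constitutive list, 30% of the heat shock list, 15% of the ER list and 15.9% of all genes. An r of -0.6 or lower was reached by 4.55%, 10%, 5% and 10.6% of them. Both shares of all genes are the highest of any member, so the number of its called relations is not particular to chaperones.

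*Hspa8* passed with 8 of the 22 constitutive chaperones, all positively, with *Dnajb2* (r = 0.81), *Cdc37* (0.80) and *Cct7* (0.80) at the top, where 36.4% of that list and 9.85% of all genes reached an r of 0.6. It was also close to *Hspbp1* (0.82), a nucleotide exchange factor of Hsp70, and negatively correlated with *Hsf2* (-0.77). *Hsf1* passed with 9 of the 62, 4 at an r of at least 0.6 and 5 at an r of -0.6 or lower, where 6.60% and 5.07% of all genes did so, and these counts are near that background. The Hsp110 genes *Hspa4* and *Hspa4l* had r of -0.76 and -0.76 with it (rho -0.67 and -0.79). None of the inducible Hsp70 genes, *Hsph1* or *Dnajb1* passed with *Hsf1* over the 18 samples. *Hsph1* passed with 1 of the 62, *Hsp90ab1*, the constitutive Hsp90 (r = 0.63, rho = 0.67, within series 0.92 and 0.82), where 0.957% of all genes reached an r of 0.6. The named pairs in these paragraphs were chosen after their values were seen, or, for *Dnajb1* with *Xbp1*, have the highest r of that member among 17763 genes. All correlations of *Hspa8*, *Hsp90aa1* and *Hspb1* used the counts of the gene alone. They were not repeated with the pseudogene counts added. The r of each with its pseudogene over the 18 samples was 0.67, 0.79 and 0.89, so these correlations are uncertain to that extent.

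Among all 17763 genes with a mean of at least 1 CPM, the gene most like each member over the 18 samples (highest Pearson r of log2 CPM, given as a description) was another heat shock gene for 1 of 9. *Hspa1b* was closest to *Hspa1a* (0.85). *Hspa1a* was closest to *Gm20481* (0.96), the gene that lies within its exon on the opposite strand, and *Hspa1b* came second. How reads of the same place bear on the r with *Gm20481* was not tested. *Dnajb1* was closest to *Xbp1* (0.91), with *Hspa1a* as the 17th gene. *Hspa5* was closest to *Mettl16* (0.87), an RNA methyltransferase, with *Hspa1b* as the 10th. *Hspb1* was closest to *Ifi27* (0.92), *Hspa8* to *Pth1r* (0.92), *Hsp90aa1* to *Cox5a* (0.94), a subunit of cytochrome c oxidase, and *Hsf1* to *Rce1* (0.85). *Hsph1* was closest to ENSMUSG00000117959 (0.83), which has no symbol in the files. The nearest member ranked 407th for *Hspb1* and 1296th for *Hsph1*, 1420th for *Hspa8*, 1919th for *Hsf1* and 2425th for *Hsp90aa1*.

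Markers of 11 cell types, 5 genes each, were set beside the members, as was the total count. Of the sensory neuron list only 4 genes passed the filter on low counts and were used. Of these 108 relations 0 passed an FDR of 5% by Pearson's r or by Spearman's rho (permutation tests). After centring on group and library series 0 passed too. The largest in size by Pearson's r was *Hsf1* with the endothelial genes (r = -0.56, rho = -0.57, permutation adjusted p = 0.563 and 0.548). By rank it was *Hspa5* with the astrocyte genes (r = 0.48, rho = 0.65, adjusted p = 0.563 and 0.469). After centring it was *Hspb1* with the motor neuron genes (r = 0.78, adjusted p = 0.0821), which had r = 0.49 before centring and 0.88 and 0.60 within the series. Next were *Hspb1* with the endothelial genes (centred r = 0.72, adjusted p = 0.154) and *Hspa1b* with the neutrophil genes (centred r = 0.68, adjusted p = 0.288). Before centring, r was 0.11 and 0.39 for these relations, and 0.014 and 0.17 without the 2 samples farthest in the markers. *Hspb1* with the sensory neuron genes had r = 0.54 but rho = -0.011, and r = -0.16 without the 2 samples farthest from the median of these markers. No list had a gene at 0 in all samples. A p that misses the threshold in 18 samples does not show that cell composition and the members are unrelated.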

How the data were processed

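Counts of 18 ipsilateral DHSC samples were analysed (6 males, 6 F1/proestrus, 6 F2/metestrus). According to the labels and methods, the authors deposited raw counts of reads on gene exons, made by mapping to mm10 with Subread (2.0.3 in the submitters' processing notes) and counting with featureCounts, without normalization. Sources differ on the library kit (SMART-Seq v4 with Nextera XT in the labels, TruSeq in the methods). A deposited DESeq2 table of 1 comparison was used for gene symbols only. The number of unused sample columns was 0.

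Samples were grouped by their labels. The study's methods count n in animals, and each sample was taken as 1 mouse. Genes were filtered with filterByExpr (minimum count 10, minimum total 15), scaled by TMM and tested with edgeR 4.0.16 in R 4.3.3 (glmQLFTest, Benjamini-Hochberg, FDR 5%), males against all females in 18 samples, F2/metestrus against F1/proestrus in 12, and the library series with group as covariate. The scripts were tested on simulated data. Correlations used log2 CPM (prior count 2) and two-sided permutation tests (scipy 1.17.1, numpy 2.4.6, 100000 resamples) adjusted within each family. Intervals are 95% intervals of the fit. Gene positions, exon lengths and shared stretches came from GENCODE vM21 on GRCm38 (55394 of 55573 IDs matched), and sequence comparisons used biopython 1.88.

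The text names the 9 members, the gene nearest to each, and in each list of other chaperones the genes called in a comparison and the 2 with the smallest p. Members and lists were chosen with earlier results of these data known. Alternatives were DESeq2 1.42.0, RLE size factors, no filter, a replicate block, the series as covariate or alone, single female groups, each sample left out, and for correlations centring, RLE and a prior count of 0.5. Adding look-alike counts (tests and levels), leaving out the samples low in *Hspa5*, rank correlation among members, and centring for markers and other chaperones were chosen after seeing the data.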

Additional observations from a re-analysis of the deposited data

Results flagged for a closer look

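Within the groups of 6, each member's highest and lowest sample was checked for standing apart from the other 5, in 27 sets of gene and group, of which chance alone marks about 1 in 20. In 2 sets a sample stood apart, and both were F2/metestrus sample 4. Its *Hspa1b* level was 17.9 CPM where the next highest F2/metestrus sample had 10.5, a gap of 0.658 of the group's range. Its *Hspa8* level was 869 CPM where the next had 725, a gap of 0.719 of the range. The same sample was also the highest of all 18 in *Hsph1*, *Hsp90aa1* and *Hspa5*. The cause was not tested, and without it the log2 fold change of F2/metestrus over F1/proestrus was -0.21 for *Hspa1b* and -0.025 for *Hspa8*, neither past the threshold in edgeR.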

How the results depend on the processing

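No setting called a member between the sexes or the female classes. The number of genes called between the sexes, 49, became 166 with DESeq2, 112 with the replicate number as a block, 133 with the series as covariate, 16 and 13 in the first and second series alone, 13 and 22 against F1/proestrus or F2/metestrus alone, and 25 to 77 on leaving out each sample, lowest without male 5 and highest without F1/proestrus sample 5. DESeq2 called 2 genes between the female classes, where the other settings called 0. The series called 3908 genes in females and 1198 in males alone, where *Hspb1* (log2 fold change 0.46 and 0.31) was not past the threshold in either and *Hsp90aa1* (0.18) was not in males. *Hspb1* was also lost with *Hsp25-ps1* added (0.26). Of the member pairs, 5 passed after centring, 9 with RLE size factors, 8 with a prior count of 0.5, 11 by rank and 2 without the samples low in *Hspa5*. Of the relations with other chaperone genes, 104 became 92 by rank and 26 after centring. Changes of direction were, between the sexes, 0.043 for *Dnajb1* in the second series, -0.015 for *Hspa1b* with the block, and 0.0071 against F2/metestrus alone and 0.025 with *Hspa1b* added for *Hspa1a*. Between the female classes they were, in the first series alone, 0.15 for *Hspb1*, 0.035 for *Dnajb1*, -0.052 for *Hsp90aa1*, -0.11 for *Hspa1b* and 0.053 for *Hspa1a*, in the second -0.045 for *Hspa5* and 0.0054 for *Hsph1*, with the block -0.0010 for *Hspa5* and -0.037 for *Hspa1b*, with *Hspa1a* added -0.024 for *Hspa1b*, and with *Gm12346* added -0.013 for *Hsp90aa1*. In females alone the series gave -0.037 for *Hspa5* and 0.0064 for *Hsph1*. The cause of these changes was not tested. On leaving out each sample, the sex difference ran -0.11 to 0.015 for *Dnajb1*, -0.069 to 0.0033 for *Hspa8*, -0.0092 to 0.050 for *Hsf1*, -0.17 to 0.20 for *Hspa1b*, -0.092 to 0.060 for *Hspa1a*, the class difference -0.029 to 0.055 for *Hspa5*, -0.17 to 0.14 for *Hspb1*, -0.046 to 0.0097 for *Hsph1*, -0.025 to 0.062 for *Hspa8*, -0.048 to 0.049 for *Hsp90aa1*, -0.21 to 0.12 for *Hspa1b*, and the series difference -0.037 to 0.054 for *Hspa5*, -0.050 to 0.0020 for *Hsph1*. The replicate numbers share only a number: same-numbered samples deviated together (correlation over 0.1) in 9 of 18 pairs (median 0.082). Pairs of different number in the same series did so in 18 of 36 (median 0.098). Best correlation with the own number was found for 7 of 18 samples. With the block, 112 genes were called between the sexes and 0 between the female classes, and no member. Depth did not limit the members, whose lowest count was 491.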

Other observations

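For 3 members a similar pseudogene drew more counts than the gene, and where those reads came from was not tested. With the counts of each pair added, the sums averaged 2249 ± 135 CPM for *Hspa8* with *Gm15459*, 646 ± 49.2 CPM for *Hsp90aa1* with *Gm12346* and 27.1 ± 6.25 CPM for *Hspb1* with *Hsp25-ps1* (SD, n = 18). Per sample the pseudogene took the larger count in 18 of 18 for each. In contrast, *Hspa1b* exceeded *Hspa1a* in 3 of 18 samples per length and in 2 of 18 in counts.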
